A study of Mus musculus with 17 samples.

Results

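Interleukin-1 (IL-1) and interleukin-18 (IL-18) genes were followed through single-cell RNA sequencing (scRNA-Seq) of GFP+ cells sorted from mouse skin and kidney in fibrosis models. The set held 9 genes of the 30406 measured in every library, chosen by name as the members of the IL-1 axis and its decoy receptor: the ligands Il1a, Il1b and Il18, the antagonist Il1rn, the receptors Il1r1, Il1r2, Il1rap and Il18r1, and the inflammasome sensor Nlrp3. All 9 had UMIs (unique molecular identifiers, counted RNA molecules) in both tissues. The 17 libraries came from 8-week-old mice that carried PDGFRb-Cre and the Z/EG reporter, with or without the SARATg allele, which places a human ZFYVE9 (SARA) cDNA at Rosa26 under the CAG promoter, behind a stop cassette that Cre removes. The skin groups were SARAWT PBS (n = 3), SARAWT bleomycin (n = 3), SARATg PBS (n = 1) and SARATg bleomycin (n = 1), with bleomycin given under the skin at 20 mg/kg, 3 times a week for 2 weeks per the labels. The kidney groups were SARAWT vehicle (n = 3), SARAWT aristolochic acid (n = 3), SARATg vehicle (n = 2) and SARATg aristolochic acid (n = 1), with aristolochic acid, a plant toxin of the tubule, given into the peritoneum at 5 mg/kg, 3 times a week for 3 weeks. Cre under the Pdgfrb promoter also marks leukocytes whose precursors used that promoter, so the sorted cells were not only pericytes, and the labels do not say how many animals a library held. The p-values below therefore measure the spread between libraries, which may be technical, other than where a fit is said to pool it over genes.

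IL-1α and IL-1β act on the signalling receptor IL-1R1, which needs the accessory chain IL-1RAP. IL-1RA, the product of Il1rn, occupies IL-1R1 without signalling, and IL-1R2 binds the ligands but lacks a signalling domain, so it serves as a decoy. IL-1β and IL-18 are made as precursors that caspase-1 cleaves within inflammasomes, of which NLRP3 is the best known sensor, whereas IL-1α is active without that step. In skin and kidney this axis is known for the recruitment of neutrophils and for the activation of fibroblasts and tubule cells after injury. These are properties of proteins, and the libraries hold RNA only.

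Most members lie in a few neighbourhoods of the genome (build GRCm38, mm10). Il1a (chr2:129299610-129309972) and Il1b (chr2:129364570-129371139) are neighbours on the minus strand, with Il1rn (chr2:24336853-24351494, plus strand) elsewhere on that chromosome. Il1r2 (chr1:40074079-40125231), Il1r1 (chr1:40225080-40317257) and Il18r1 (chr1:40465552-40500854) follow one another on the plus strand. Il1rap (chr16:26581704-26730117), Il18 (chr9:50554827-50581840) and Nlrp3 (chr11:59541568-59566956) stand alone, also on the plus strand. The 250 bases before the annotated starts, from RefSeq (GRCm38.p6), are shown for the 4 members with which the comparisons below are most concerned: the neighbours Il1a and Il1b, which differed in their levels among cells, Nlrp3 with its 2 starts, and Il1r2. Capitals mark exact matches, on either strand, to AGGAAG (PU.1-type, so that CTTCCT is a match on the other strand), TTGCNNAA (C/EBP-type), GGGANNNNCC (NF-kB-type) or TGANTCA (AP-1-type).
Il1a, chr2:129309973-129310222, minus strand: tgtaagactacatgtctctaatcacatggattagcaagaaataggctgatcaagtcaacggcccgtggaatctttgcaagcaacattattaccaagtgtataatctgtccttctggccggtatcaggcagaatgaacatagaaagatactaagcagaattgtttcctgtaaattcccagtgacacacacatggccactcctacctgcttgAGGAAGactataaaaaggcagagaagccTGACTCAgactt
Il1b, chr2:129371140-129371389, minus strand: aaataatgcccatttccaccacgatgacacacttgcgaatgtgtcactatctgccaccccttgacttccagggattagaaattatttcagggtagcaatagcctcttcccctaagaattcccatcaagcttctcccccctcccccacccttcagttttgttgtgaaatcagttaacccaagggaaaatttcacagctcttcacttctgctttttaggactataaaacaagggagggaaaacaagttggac
Nlrp3, first listed start, chr11:59542436-59542685, plus strand: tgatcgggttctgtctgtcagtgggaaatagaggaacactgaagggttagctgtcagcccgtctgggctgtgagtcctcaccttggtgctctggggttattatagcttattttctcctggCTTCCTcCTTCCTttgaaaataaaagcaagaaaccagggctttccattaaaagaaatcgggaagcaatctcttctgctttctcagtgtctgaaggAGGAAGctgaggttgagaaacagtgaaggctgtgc
Nlrp3, second listed start, chr11:59541319-59541568, plus strand: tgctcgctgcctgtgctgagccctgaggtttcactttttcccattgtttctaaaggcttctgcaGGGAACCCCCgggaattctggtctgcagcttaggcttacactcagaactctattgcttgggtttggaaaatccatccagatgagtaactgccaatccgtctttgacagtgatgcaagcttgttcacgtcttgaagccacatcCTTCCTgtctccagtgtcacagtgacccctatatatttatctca
Il1r2, chr1:40085843-40086092, plus strand: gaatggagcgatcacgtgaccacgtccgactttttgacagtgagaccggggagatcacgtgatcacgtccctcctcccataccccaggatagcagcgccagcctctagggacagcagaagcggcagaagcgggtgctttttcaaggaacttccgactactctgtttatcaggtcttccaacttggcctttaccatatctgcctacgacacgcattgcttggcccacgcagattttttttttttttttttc
The Il1a window held 1 AGGAAG and 1 TGANTCA, the Nlrp3 windows held 3 and 1 AGGAAG with 1 GGGANNNNCC in the second, and the Il1b and Il1r2 windows held none of the 4 motifs. Over the 15 windows of the set, AGGAAG was present in 5 (4 of 9 members), GGGANNNNCC in 3 (3 members), TGANTCA in 2 (2 members) and TTGCNNAA in 1 (1 member). Of 32851 windows of the same length over all genes, 29.5% held AGGAAG, 17.6% GGGANNNNCC, 9.56% TTGCNNAA and 6.75% TGANTCA. No match overlaps one of another motif in these windows. The matches describe letters, not binding.

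Total UMI counts ran from 3355217 to 69765525 per skin library and from 28660151 to 137093834 per kidney library, and 30076 and 61732 cells were kept. Cells were assigned to classes by marker lists. The skin held 11712 mononuclear phagocytes (macrophages, monocytes and dendritic cells), 3696 T, NK and innate lymphoid cells, 2908 stromal cells, 2204 neutrophils and 810 mast cells and basophils, and the kidney held 21865 proximal tubule cells, 17722 T, NK and innate lymphoid cells, 8481 phagocytes and 1124 neutrophils. Pdgfrb itself was at 356 to 758 CPM (UMIs scaled to a total of 1000000 for the cells summed) in skin mural cells, 30.3 to 201 in stroma, 0.644 to 1.97 in phagocytes and 0 to 2.04 in neutrophils. Mouse Zfyve9, the counterpart of the human cDNA in the transgene, went against some labels. In skin it was at 621 CPM in the library labelled SARAWT PBS 3, above the 314 and 224 CPM of the SARATg libraries. The human ZFYVE9 entry, listed for 4 skin libraries, stood at 838 CPM in the library labelled SARAWT PBS 1 and at 87.4 to 187 in the others. In that PBS 1 library mouse Zfyve9 was at 26.0 CPM. How transgene RNA was counted in libraries without the human entry was not tested. In kidney Zfyve9 was at 164 CPM in the library labelled SARAWT aristolochic acid 1 and at 20.6 in that labelled SARATg aristolochic acid 1, against 100 and 96.4 in the SARATg vehicle libraries. Of the barcodes of the library labelled SARAWT PBS 2, 55.5% also occurred in another skin library. This share was 7.38% in PBS 1, 17.6% in bleomycin 1 and 22.1% in bleomycin 2, which have the same gene list. It was 0.594 to 0.824% in the other skin libraries. Results that rest on PBS 2, or on libraries whose Zfyve9 or ZFYVE9 went against the label, are given with and without them where that changed a call or moved a value by over 1.5 times.

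The ligand Il1b had its highest level in neutrophils in both tissues. In skin its mean over the 8 libraries was 11455 ± 2811 CPM (SD) in neutrophils against 2756 ± 862 in phagocytes, higher in 8 of 8 libraries (exact sign-flip test over libraries, two-sided, adjusted p = 0.0128). In kidney the means were 8205 ± 2486 and 218 ± 167 CPM, higher in 9 of 9 libraries (exact test, adjusted p = 0.0117). Skin phagocytes, being far more numerous, still held 71.3% of all skin Il1b UMIs against 10.6% for neutrophils (6.31% without bleomycin 3), with 16.9% in cells outside every class. Among the phagocytes, monocytes ran from 2343 to 9895 CPM and macrophages from 800.3 to 2994 over the libraries with 10 or more such cells. For comparison, skin endothelial cells held 0 to 30.4 CPM, keratinocytes 0 to 69.5, stroma 8.05 to 72.4 and mural cells 0 to 152. How much of any level is free RNA was not tested.

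The other ligand, Il1a, was much scarcer than its neighbour Il1b. Skin neutrophils had 221 ± 300.3 CPM and phagocytes 12.6 ± 10.8, with neutrophils higher in 7 of 8 libraries (exact sign-flip test, adjusted p = 0.0469). The libraries differed widely, the neutrophil level running from 0 to 882 CPM across the libraries. In kidney no class stood out, with 6.31 ± 7.68 CPM in phagocytes and 5.70 ± 10.4 in neutrophils (higher in 5 of 9 libraries, exact test, adjusted p = 0.234). Skin keratinocytes, a known source of IL-1α, held 0 to 0.348 CPM. Il18 was highest in phagocytes: 57.8 ± 15.6 CPM in skin phagocytes against 12.1 ± 9.12 in stroma, the next class (8 of 8 libraries), and 31.6 ± 8.26 against 12.9 ± 8.88 in kidney B and plasma cells (8 of 9; exact tests, both adjusted p = 0.0128). Kidney proximal tubule cells held a further 20.0% of the Il18 UMIs of that tissue (13.1% without vehicle 1), beside 50.5% in phagocytes.

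The antagonist and the decoy were also highest in neutrophils. Il1rn reached 1075 ± 498 CPM in skin neutrophils against 291 ± 80.3 in phagocytes (8 of 8 libraries, exact sign-flip test, adjusted p = 0.0128), and 362 ± 408 against 12.2 ± 9.71 in kidney (9 of 9, exact test, adjusted p = 0.0117). Within skin phagocytes, macrophages ran from 205 to 581 CPM of Il1rn and dendritic cells from 45.2 to 152, without overlap. The decoy receptor Il1r2 stood at 832 ± 362 CPM in skin neutrophils and at 109 ± 106 in stroma, the second class (8 of 8 libraries, exact test, adjusted p = 0.0128). In kidney it stood at 541 ± 595 CPM in neutrophils and 6.81 ± 3.84 in mononuclear phagocytes, the second class (9 of 9, exact test, adjusted p = 0.0117). Of the skin Il1r2 UMIs, 43.8% were in phagocytes, 23.2% in stroma and 17.0% in neutrophils. The order of the last pair rested on the SARATg PBS library, without which stroma held 8.51% and neutrophils 22.2%. Without bleomycin 3 the neutrophil share was 9.71%.

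The signalling receptor Il1r1 had another distribution. In skin, stroma (70.4 ± 23.6 CPM) and T, NK and innate lymphoid cells (56.8 ± 30.8) did not differ beyond their spread (higher in 5 of 8 libraries, exact sign-flip test, adjusted p = 0.22). The mural cells, which reached 10 cells in 5 libraries only and so did not enter that order, held 175, 75.6 and 234 CPM after PBS and 108 and 165 in the SARATg libraries. In kidney, collecting duct (29.1 ± 13.8) and endothelial cells (23.1 ± 6.81) were likewise not separated (5 of 7, exact test, adjusted p = 0.232). The accessory chain Il1rap was highest in neutrophils, at 481 ± 211 CPM in skin, with Schwann cells, the glia of skin nerves, second at 213 ± 49.3 (7 of 7 libraries, exact test, adjusted p = 0.0201), and at 140.3 ± 61.9 in kidney against 6.82 ± 2.23 in mononuclear phagocytes (9 of 9). Il18r1, the ligand-binding chain for IL-18, stood at 219 ± 26.2 CPM in T, NK and innate lymphoid cells of skin and 104 ± 31.8 in those of kidney, and those cells held 72.0% and 80.8% of its UMIs. Kidney mast cells and basophils, which reached 10 cells in 3 libraries only and so did not enter the order, were higher, at 726 CPM in vehicle 2 and 374 and 337 in the SARATg vehicle libraries, over 10, 10 and 19 cells. Nlrp3 had its highest level in neutrophils, at 2201 ± 600.2 CPM in skin (second class mast cells and basophils, 274 ± 291, 7 of 7 libraries, exact test, adjusted p = 0.0201) and 203 ± 76.6 in kidney (phagocytes 26.7 ± 6.16, 9 of 9), where mast cells and basophils held 242, 57.5 and 118 CPM in the same 3 libraries. Most of its UMIs were still in phagocytes, 55.4% in skin and 54.1% in kidney, against 28.9% (14.9% without bleomycin 3) and 13.7% in neutrophils.

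**Figure D1:**
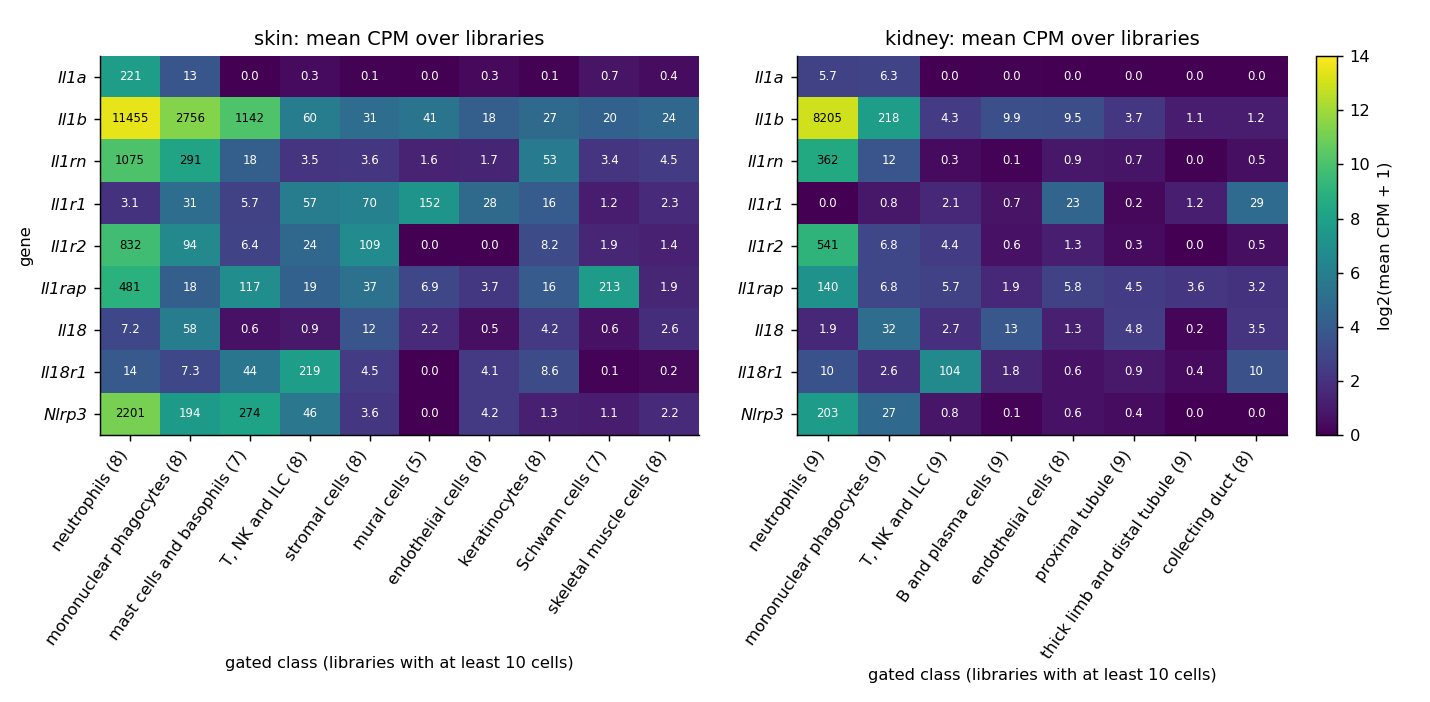
Mean level of the 9 members in each marker-gated cell class of skin and kidney, in CPM over libraries with at least 10 cells of the class (colour: log2 of the mean plus 1). Among the classes shown, Il1b, Il1rn, Il1r2, Il1rap and Nlrp3 are highest in neutrophils of both tissues, Il18r1 in T, NK and innate lymphoid cells, and Il18 in phagocytes. Kidney mast cells and basophils, with 10 or more cells in 3 libraries, are not shown.

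Among classes with 10 or more cells in at least 6 libraries, the first and second class differed for 15 of 18 gene and tissue pairs, Il1r1 in both tissues and Il1a in kidney being the exceptions. With shared barcodes left out or with the looser gate 14 were called. The classes were ranked by the same levels that were then tested, and the p-values make no allowance for that choice. Genes whose pattern over the 21 class means of both tissues was most like that of a member were found among 12497 candidates by Pearson correlation. For Il1b they were Mefv (r = 0.948), Clec4e (r = 0.940) and Ptafr (r = 0.937), which encode the inflammasome sensor pyrin, the C-type lectin Mincle and the receptor of platelet-activating factor. For Nlrp3 they were Lilr4b (r = 0.949), Lilrb4a (r = 0.943) and Plek (r = 0.916), of which Lilrb4a is an inhibitory leukocyte receptor. Those nearest to Il1rn were Slc7a11 (r = 0.948), Dhrs9 (r = 0.935) and Mefv (r = 0.922), Slc7a11 being the cystine transporter and Dhrs9 a retinol dehydrogenase. The decoy Il1r2 was nearest to Dhrs9 (r = 0.918), Ptgs2 (r = 0.913) and Slc7a11 (r = 0.907), Ptgs2 being cyclooxygenase-2. Il1a was nearest to 2010013B24Rik (r = 0.952), Gm37168 (r = 0.941) and Gpr84 (r = 0.940), and Il18 to Ctsh (r = 0.844), Lacc1 (r = 0.815) and Cyp27a1 (r = 0.805), Ctsh being cathepsin H. Like Il18, the remaining members had weaker matches. These were Rasd1 (r = 0.819), Hif1a (r = 0.771) and Bmp2 (r = 0.753) for Il1r1. For Il1rap they were Tle3 (r = 0.869), Foxo3 (r = 0.813) and Klf6 (r = 0.805), and for Il18r1 Gstp3 (r = 0.869), Clint1 (r = 0.859) and Gm20186 (r = 0.854). The class means share libraries and depth, so these are descriptions.

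In SARAWT skin, neutrophils of all 3 bleomycin libraries had more Il1a, Il1rn and Il1r2 RNA than those of all 3 PBS libraries, whereas stromal Il1r2 was lower in all 3. After the filter on low counts, 9 of 9 members were tested in phagocytes, 6 each in neutrophils, stroma and T, NK and innate lymphoid cells, 3 in mast cells and basophils, 2 in keratinocytes and 1 each in Schwann and skeletal muscle cells, 34 tests in 8 classes. By edgeR 0 of the 34 passed an adjusted p of 0.05 (unadjusted p under 0.05 for 10), where the background, the share of all genes tested in those classes that passed, was 0.547%. DESeq2, which gave an adjusted p for 33 of them, called 3 (background 2.93%): neutrophil Il1a, stromal Il1r2 and phagocyte Il18r1. With no filter on low counts 5 of 78 tests passed (background 1.65%): neutrophil Il1a (adjusted p = 0.0164), stromal Il1r2 (0.000595) and, in T, NK and innate lymphoid cells, Il1r1, Nlrp3 and Il1b. In the sums over all kept cells, in which more cells of a type and more RNA per cell cannot be told apart, 0 of 9 members passed (background 0%, unadjusted p under 0.05 for 2). Here and below the backgrounds count adjusted p only. The counts with unadjusted p under 0.05 have no share of all genes beside them and cannot be set against the backgrounds. Of the 34, 6 were higher in every bleomycin library than in every PBS library (background 8.98%; one of the 6, Nlrp3 of T, NK and innate lymphoid cells, only if a library with 0 UMIs counts as 0) and 5 were lower (background 11.6%). Same-numbered libraries correlated by over 0.1 in their deviations from the group means in neutrophils, phagocytes, stroma and all kept cells. In all kept cells, however, PBS 2 correlated more with bleomycin 1 (0.213) than with bleomycin 2 (0.129). Libraries 3 also differ from libraries 1 and 2 in gene list, which alone would raise these correlations, so pairing by number was not shown. With the replicate number as a block 4 of 34 passed (background 3.18%): neutrophil Il1a, stromal Il1r2, and phagocyte Il1r1 and Il1a. In all kept cells 2 of 9 rose with the block (background 3.81%), Il1a (log2 fold change 2.16 (SE 0.18, adjusted p = 0.0183)) and Il1rn (0.95 (SE 0.17, adjusted p = 0.0484)).

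Neutrophil Il1a was at 86.2, 34.8 and 102 CPM in PBS 1 to 3 and at 236, 882 and 414 in bleomycin 1 to 3, from 5, 1 and 100 and 55, 40 and 1469 UMIs. The lowest treated library was above the highest control, and the treated libraries spread widely. The log2 fold change was 2.40 (SE 0.53, 95% interval 1.26 to 3.55, adjusted p = 0.278) by edgeR, and with the replicate block it was 2.25 (SE 0.42, adjusted p = 0.00147), where 0.68% of neutrophil genes passed. Without the libraries labelled PBS 1 and PBS 3, which leaves the 1 PBS UMI of PBS 2, it was 4.04, adjusted p = 0.247. The neutrophil marker list (S100a8, S100a9 and 9 others, 10 to 11 of 11 detected) summed to 115384, 62699.8 and 113332 CPM after PBS and 59053, 61965 and 46400.2 after bleomycin. The macrophage list overlapped between the groups (288 to 591 and 308 to 639 CPM, 5 to 12 of 12 genes detected, C1qa at 0 to 2.04 and 7.32 to 68.5). So did the keratinocyte list (0 to 91.9 and 17.1 to 66.1 CPM, 0 to 13 of 13 detected, Krt5 at 0 to 5.11 and 0 to 0.563). The part of the lower neutrophil list in the Il1a level was not tested.

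The antagonist and the decoy had the same order in neutrophils. Il1rn was at 742, 556 and 1254 CPM after PBS against 1739, 1411 and 1663 after bleomycin, without overlap (log2 fold change 0.89, SE 0.39, adjusted p = 0.778). Il1r2 was at 448, 382 and 656 CPM after PBS against 1396, 1256 and 907 after bleomycin, again without overlap (log2 fold change 1.22, SE 0.37, adjusted p = 0.735). In neutrophils 6.17% of the genes tested were higher in every treated library, and neither gene passed with the block (adjusted p = 0.19 and 0.0939). Il1b, the most abundant member, overlapped, at 10726, 8480.5 and 11906 CPM after PBS against 17614, 11485 and 10086 after bleomycin (log2 fold change 0.38, SE 0.37, adjusted p = 0.938). Nlrp3 (1983, 2433 and 2225 against 3054, 1852 and 2926 CPM) and Il1rap (569, 139 and 824 against 497, 265 and 624) overlapped too. PBS 1 and PBS 2 held 23 and 13 neutrophils and bleomycin 2 held 17, so these levels carry wide counting intervals.

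**Figure D2:**
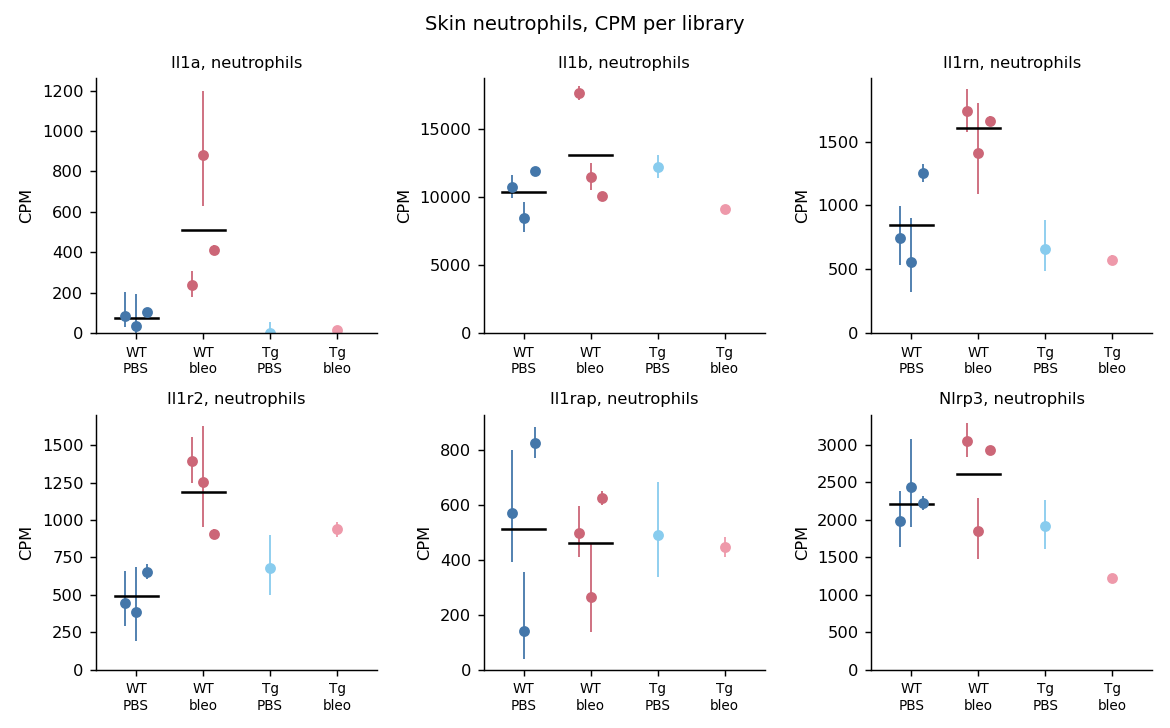
Levels of 6 members in skin neutrophils, in CPM per library on linear axes from 0, for SARAWT and SARATg mice after PBS or bleomycin. Points are libraries, bars their 95% Poisson counting intervals and black lines the group means. The 3 SARAWT bleomycin libraries lie above the 3 SARAWT PBS libraries for Il1a, Il1rn and Il1r2, and the SARATg bleomycin library is far below them for Il1a.

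The stromal class was gated by markers such as Dcn and Pdgfra, and the study's clusters of noncanonical pericytes were not matched to it. These stromal cells carried the decoy receptor at 82.3, 165 and 205 CPM in PBS 1 to 3 and at 21.2, 45.5 and 43.0 in bleomycin 1 to 3. Every treated library was below every control, as for 14.8% of the genes tested in this class. The log2 fold change was -2.07 (SE 0.43, 95% interval -3.05 to -1.09, adjusted p = 0.0573), where 0.853% of stromal genes passed. With the replicate block it was -2.01 (SE 0.20, adjusted p = 0.0133), where 6.27% passed, and DESeq2 gave an adjusted p of 9.23e-05. Leaving out cells above 2 times the median UMI count of their library and class brought the log2 fold change to -1.04, adjusted p = 1. The signalling receptor Il1r1 in the same cells overlapped between the groups, at 52.6, 85.8 and 114 CPM after PBS against 87.8, 66.2 and 58.2 after bleomycin (log2 fold change -0.25, SE 0.35, adjusted p = 0.703). In stroma the neutrophil list summed to 20.3 to 30.8 CPM after PBS and 43.0 to 86.1 after bleomycin (3 to 10 of 11 genes detected, S100a8 at 4.26 to 10.7 and 1.38 to 7.85), the opposite order to Il1r2. The macrophage list was at 143 to 372 and 95.6 to 158 CPM, overlapping. Other lists moved in the order of Il1r2, without overlap. The list of T, NK and innate lymphoid cells summed to 152, 77.8 and 76.3 CPM after PBS and 22.9, 40.7 and 31.0 after bleomycin (4 to 12 of 16 genes detected, Cd3e at 0 to 0.689). The keratinocyte list summed to 120.0, 93.9 and 119 CPM after PBS and 35.9, 60.0 and 46.2 after bleomycin (6 to 13 of 13 genes detected, Krt5 at 0 to 2.48). The stromal list itself was at 22167, 33863 and 29441 CPM after PBS and 12916, 25239 and 17881 after bleomycin, overlapping, and the part of these lists in the Il1r2 values was not tested.

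The decoy receptor was unevenly spread within the stroma, as a division of the cells made after the levels had been seen shows. Cells with a UMI of Pi16, a marker of adventitial fibroblasts, had more Il1r2 than cells without in 8 of 8 libraries, with medians of 158 and 20.3 CPM. The same held for Cyp2f2 (8 of 8, 213 against 36.8 CPM) and Mmp3 (8 of 8, 155 against 39.2). Cells with Crabp1 had less in 8 of 8 (16.4 against 90.4), and those with Cthrc1 had more in 2 of 8 (28.6 against 92.9). Il1r1 was not divided in this way by Pi16 (higher in 5 of 8, 73.9 against 59.7 CPM). The cells with Pi16 were 285 of 612, 54 of 130 and 92 of 353 stromal cells after PBS, 25 of 126, 45 of 182 and 14 of 126 after bleomycin, 447 of 952 in the SARATg PBS library and 23 of 427 in the SARATg bleomycin library. Fewer such cells and less Il1r2 in each cannot be told apart in the class level. A cell with more UMIs is also more likely to hold one of Pi16.

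In skin phagocytes Il1r1 and Il18r1 were lower in every bleomycin library, as were 9.2% of the genes tested, and the ligands overlapped between the groups. Il1r1 was at 28.2, 54.3 and 49.4 CPM after PBS against 9.47, 23.0 and 21.6 after bleomycin (log2 fold change -1.25, SE 0.41, adjusted p = 0.337), and it fell by the fit with the block, -1.30 (SE 0.15, adjusted p = 0.0169), where 1.44% of phagocyte genes passed. The stromal marker list in these cells summed to 185, 146 and 65.5 CPM after PBS and 56.1, 83.1 and 60.3 after bleomycin (8 to 13 of 13 genes detected), and its part in the Il1r1 level was not tested. Il18r1, a low transcript here, was at 17.3, 8.84 and 6.12 CPM after PBS against 1.28, 2.79 and 3.21 after bleomycin (log2 fold change -2.07, SE 0.46, adjusted p = 0.191), and DESeq2 and the edgeR fit without PBS 3 gave adjusted p of 0.00234 and 0.0396. The lymphocyte list in phagocytes was at 49.0, 29.7 and 28.7 CPM after PBS and 11.4, 23.9 and 29.1 after bleomycin (7 to 16 of 16 genes detected, Cd3e at 0 to 0.271). Il18 itself was at 75.1, 72.6 and 53.2 CPM after PBS against 44.7, 54.5 and 38.1 after bleomycin, where bleomycin 2 lay above PBS 3 (log2 fold change -0.50, SE 0.19, adjusted p = 0.397).

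Phagocyte Il1b was at 1804, 2423 and 4479 CPM after PBS against 1728, 2709 and 2889.7 after bleomycin (log2 fold change -0.25, SE 0.39, adjusted p = 0.85), and without the library labelled SARAWT PBS 3, the highest, its direction turned (log2 fold change 0.29, adjusted p = 0.588). That library also had the lowest sum of macrophage markers among phagocytes of the SARAWT libraries, 2635 CPM against 4605 to 7413 after bleomycin. Il1a was at 3.98, 3.16 and 17.2 CPM after PBS against 10.1, 9.81 and 36.5 after bleomycin (log2 fold change 1.07, SE 0.76, adjusted p = 0.64). With the block it rose, 1.30 (SE 0.22, adjusted p = 0.0356). Without the block the value moved with single libraries, to 0.18, adjusted p = 0.944 without bleomycin 3 and to 2.46, adjusted p = 0.111 without PBS 3. Il1rn was at 159, 275 and 287 CPM after PBS against 268, 441 and 327 after bleomycin, and Nlrp3 at 181, 229.9 and 218 CPM after PBS against 179, 180.1 and 229 after bleomycin, both overlapping.

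T, NK and innate lymphoid cells had Il1r1 at 35.5, 38.8 and 37.7 CPM after PBS against 97.2, 88.5 and 43.7 after bleomycin, without overlap (log2 fold change 1.15, SE 0.35, adjusted p = 0.584), and 4.01% of the genes of this class were higher in every treated library. Their Nlrp3 was at 34.8, 0 and 19.9 CPM after PBS against 93.0, 39.1 and 36.5 after bleomycin (log2 fold change 1.26, SE 0.50, adjusted p = 0.839), where the 0 UMIs of PBS 2 allow up to 38.8 CPM (3 counts), above bleomycin 3, so that a lack of overlap is not shown. Within skin T cells, Il1r1 was higher in cells with a UMI of Trdc, the gamma-delta receptor chain, in 7 of 7 libraries (medians 88.2 and 17.2 CPM), by a division made after the levels were seen. Il1b was lower in every treated library, at 167, 64.7 and 72.0 CPM after PBS against 14.4, 55.7 and 31.9 after bleomycin (log2 fold change -1.52, SE 0.47, adjusted p = 0.584). In PBS 2, 38.8 CPM is 3 counts, so its levels of Il1r1 and Il1b rest on few UMIs and their order against bleomycin is uncertain. With no filter all 3 passed, at adjusted p = 0.0341 for Il1r1, 0.0255 for Nlrp3 and 0.000143 for Il1b. Over all skin libraries with 10 or more cells of the class, Il1b was at 0 to 30.4 CPM in endothelial cells. It was at 0 to 53.6 in skeletal muscle cells, 0 to 69.5 in keratinocytes, 8.05 to 72.4 in stroma and 0 to 152 in mural cells. How much of the Il1b of T, NK and innate lymphoid cells came from other cells was not tested. The neutrophil list in these cells summed to 0 to 24.1 CPM after PBS and 7.05 to 42.2 after bleomycin (0 to 10 of 11 genes detected). When cells above 2 times the median UMI count were left out, the log2 fold change turned to 0.36, adjusted p = 0.993. Il18r1, the main member of these cells, overlapped between the groups, at 226, 181 and 224 CPM after PBS against 269, 201 and 202 after bleomycin. The remaining non-overlapping members were Il1rap in Schwann cells, at 153 and 186 CPM after PBS against 187, 237 and 241 after bleomycin (log2 fold change 0.46, SE 0.26, adjusted p = 0.287), and Il1rap in mast cells and basophils, at 137 and 148 CPM after PBS against 131, 99.9 and 86.0 after bleomycin (log2 fold change -0.54, SE 0.36, adjusted p = 1), each with 2 PBS libraries of 10 or more cells.

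**Figure D3:**
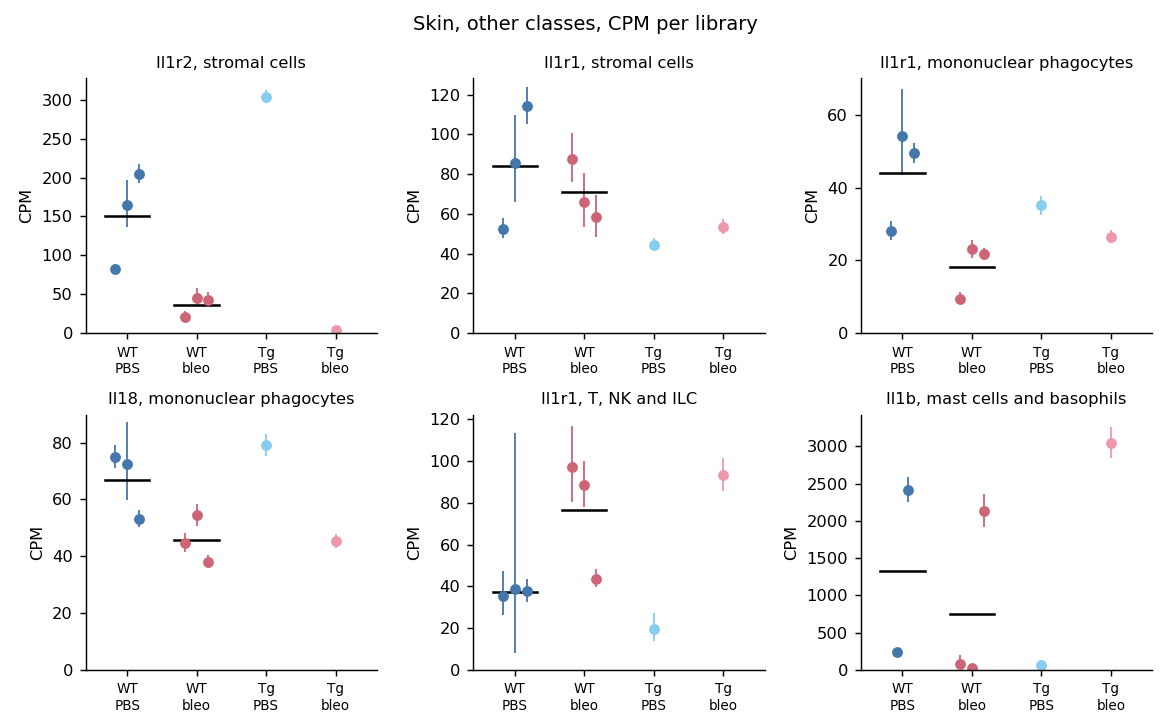
Levels of members in other skin classes, in CPM per library on linear axes from 0: Il1r2 and Il1r1 in stromal cells, Il1r1 and Il18 in phagocytes, Il1r1 in T, NK and innate lymphoid cells, and Il1b in mast cells and basophils. Points are libraries with at least 10 cells of the class, bars 95% Poisson counting intervals and black lines group means. Stromal Il1r2 is lower in every bleomycin library than in every PBS library, and mast cell and basophil Il1b divides the libraries into high and low within each SARAWT group.

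Phagocytes and lymphocytes were also read in 6 subclasses (macrophages, monocytes, dendritic cells, phagocytes not divided further, Cd3+ T cells and Cd3- lymphocytes). By edgeR 0 of 43 tests passed there (background 0.15%, unadjusted p under 0.05 for 14). With the replicate block 9 of 43 passed (background 2.1%). In macrophages Il1a rose (log2 fold change 1.38, adjusted p = 0.0155), while Il1r1 (-1.11, adjusted p = 0.0241) and Il18r1 (-2.18, adjusted p = 0.0419) fell. In undivided phagocytes Il1a (2.62, adjusted p = 0.0109) and Nlrp3 (1.08, adjusted p = 0.031) rose, while Il1r1 (-1.63, adjusted p = 0.00333) and Il18 (-1.05, adjusted p = 0.0258) fell. In macrophages PBS 1 correlated with bleomycin 2 (0.288) as much as with bleomycin 1 (0.287) in its deviations from the group means. Macrophages and undivided phagocytes both still met the limit of over 0.1 used for pairing by number. The last pair were Il1b (log2 fold change -2.55, adjusted p = 1.53e-18) and Nlrp3 (1.43, adjusted p = 0.000136) in Cd3+ T cells, where too few libraries reached 10 cells for that check. The fit of these T cells had 9242 degrees of freedom, as many as the genes tested, and pooled the spread over genes. Its p-values therefore do not measure the spread between libraries of this class.

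The SARATg comparisons in skin rest on 1 library per treatment, whose spread was assumed to be like that of the SARAWT groups, and, through the gene list term, mainly on the libraries labelled PBS 3 and bleomycin 3. After bleomycin, 1 of 46 tests passed (background 0.2%): neutrophil Il1a was lower in the SARATg library, at 16.9 CPM over 468 cells against 236, 882 and 414 in the SARAWT libraries. The log2 fold change was -5.00 (SE 0.79, adjusted p = 1.04e-05), and the test passed under all 17 alternatives (range -5.74 to -4.19). Neutrophil Il1rn was at 570.2 CPM against 1739, 1411 and 1663 (log2 fold change -2.12, SE 0.64, adjusted p = 0.32), and Il1b at 9141 against 17614, 11485 and 10086. Stromal Il1r2 was at 4.38 against 21.2, 45.5 and 43.0 CPM (log2 fold change -3.46, SE 0.65, adjusted p = 0.483), and 4 of 18 alternatives passed. In the subclasses 0 of 44 passed (background 0.0554%, unadjusted p under 0.05 for 6). Neutrophil Il1rap was at 489 and 445 CPM in the SARATg PBS and bleomycin libraries, phagocyte Il18 at 79.0 and 45.4, and Il18r1 of T, NK and innate lymphoid cells at 215 and 234. Each lay within the range of the SARAWT libraries of the same treatment but for Il18 after PBS, which was above it. The stromal marker list was at 12082 CPM in the SARATg bleomycin stroma, below the SARAWT bleomycin libraries, and at 55399.8 in the SARATg PBS stroma, above the SARAWT PBS ones and every other skin library.

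After PBS, 3 of 48 tests passed (background 0.547%). Nlrp3 of T, NK and innate lymphoid cells was higher, at 106 CPM in the SARATg library against 34.8, 0 and 19.9 (log2 fold change 2.43, SE 0.43, adjusted p = 0.0127; 13 of 18 alternatives passed). It did not pass without the gene list term (adjusted p = 1), with DESeq2, with shared barcodes left out, with at least 30 cells or without PBS 2. The others were Il1b and Nlrp3 in mast cells and basophils. Il1b stood at 63.4 CPM against 237 and 2414 in PBS 1 and PBS 3 (log2 fold change -5.82, SE 0.59, adjusted p = 6.20e-15), PBS 2 having under 10 such cells. Nlrp3 had 0 UMIs in the SARATg library, which allows up to 27.2 CPM (3 counts), against 110.4 and 479 CPM. Without the gene list term, without PBS 3 or without bleomycin 3 neither passed. In the subclasses 1 of 44 passed (background 0.104%), Nlrp3 of Cd3+ T cells (log2 fold change 3.00 (SE 0.49, adjusted p = 0.0303)). Neutrophil Il1a likewise had 0 UMIs over 30 SARATg PBS cells, up to 43.2 CPM, and was not separated from the PBS libraries (adjusted p = 0.474). Neutrophil Il1rn was at 662 CPM against 742, 556 and 1254 (log2 fold change -0.91, SE 0.61, adjusted p = 1).

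The SARATg bleomycin and SARATg PBS groups are 1 library each, so the p-values between them hold no replicate spread of either and rest on the spread of the SARAWT libraries, and what follows compares these 2 libraries. By that fit 4 of 48 passed (background 1.65%). Stromal Il1r2 was at 304 CPM in the PBS and 4.38 in the bleomycin library (log2 fold change -6.47, SE 0.74, adjusted p = 0.0115; all 17 alternatives passed), the same order as in SARAWT stroma. In the same pair of libraries the stromal list was at 55399.8 and 12082 CPM (Dcn at 12476 and 3524), the list of T, NK and innate lymphoid cells at 71.2 and 16.5, the macrophage list at 182 and 70.8, the keratinocyte list at 59.9 and 57.3 and the neutrophil list at 15.1 and 44.2, and their part in the Il1r2 values was not tested. For Il1r2 the difference between the genotypes in this change was -4.54 (SE 0.75, adjusted p = 0.21), or -4.54 (SE 0.43, adjusted p = 0.0301) with the block. Il1r1 of T, NK and innate lymphoid cells was at 19.7 and 93.4 CPM (log2 fold change 2.31, SE 0.44, adjusted p = 0.0078; 13 of 17 alternatives passed). It did not pass without the gene list term (adjusted p = 0.401), with shared barcodes left out, with at least 30 cells or without PBS 2. Il1b of mast cells and basophils was at 63.4 and 3048 CPM (log2 fold change 5.75, SE 0.58, adjusted p = 1.32e-14), and Nlrp3 at 0 UMIs, up to 27.2 CPM, and 799 CPM. Without PBS 3 or without bleomycin 3, which are in neither group, or without the gene list term, those of mast cells and basophils did not pass. In the subclasses 2 of 44 passed (background 0.494%), Il1r2 of dendritic cells (log2 fold change 1.89 (SE 0.42, adjusted p = 0.0454)) and Il1a of undivided phagocytes (4.54 (SE 0.63, adjusted p = 0.0185)). For the difference between the genotypes in the change after bleomycin, 3 of 46 passed (background 0.311%), Il1b and Nlrp3 of mast cells and basophils and Il1b of T, NK and innate lymphoid cells, and 0 of 44 in the subclasses (background 0.0589%, unadjusted p under 0.05 for 8). Stromal Il1r2 is given above, and the smallest adjusted p over the classes was 0.659 for Il1a, 0.486 for Il1rn, 0.464 for Il1r1, 0.478 for Il1rap, 0.979 for Il18 and 0.732 for Il18r1. The SARAWT bleomycin libraries were split in mast cells and basophils, at 75.1, 27.3 and 2131 CPM of Il1b. In PBS 3 and the SARATg bleomycin library, where cells with and without a UMI of the basophil protease Mcpt8 could both be counted, those with it held 9628 and 6818 CPM of Il1b and those without 1205 and 1454. The neutrophil list in this class summed to 10.4 and 303 CPM in PBS 1 and 3, 56.3, 0 and 209 in bleomycin 1 to 3, 0 in SARATg PBS and 361 in SARATg bleomycin, highest in the libraries with the most Il1b, and its part was not tested.

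The check that replicate numbers pair libraries used SARAWT libraries only. Both SARATg skin libraries are numbered 1 but share the gene list and Cell Ranger version of SARAWT libraries 3. The block therefore sets them beside libraries of another processing, SARAWT libraries 1. With the replicate block in place of the gene list term, more of these SARATg tests passed. In the lineage classes it was 6 of 46 between the genotypes after bleomycin (background 1.19%), 5 of 46 between them after PBS (background 1.26%), 7 of 46 between the SARATg libraries (background 3.41%) and 5 of 46 for the difference in change (background 0.554%). In the subclasses, in the same order, it was 3 of 44 (background 1.39%), 3 of 44 (background 1.09%), 6 of 44 (background 1.03%) and 2 of 44 (background 0.284%). Among the classes where the numbers paired the libraries, Il1r1 was higher after bleomycin in the SARATg library in phagocytes, at 26.5 CPM against 9.47, 23.0 and 21.6 (log2 fold change 1.39, SE 0.25, adjusted p = 0.029), and in macrophages, at 23.7 against 6.53, 15.4 and 19.7 (log2 fold change 1.92, SE 0.29, adjusted p = 0.0118). Stromal Il1r2 was higher in the SARATg library after PBS, at 304 CPM against 82.3, 165 and 205 (log2 fold change 2.33, SE 0.30, adjusted p = 0.0194), and its difference in change passed as given above. Without the block their adjusted p were 0.994 and 1 for Il1r1 and 0.678 for Il1r2.

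In SARAWT kidney no member passed between aristolochic acid and vehicle with all libraries in the fit: 0 of 26 tests in 7 classes by edgeR (background 0%, unadjusted p under 0.05 for 4) and 0 by DESeq2 (background 0.177%), 0 of 29 in the subclasses (background 0.0102%, unadjusted p under 0.05 for 4), and 0 of 9 in the sums over all kept cells (background 0%, unadjusted p under 0.05 for 1). Members tested after the filter were 8 of 9 in phagocytes, 7 in T, NK and innate lymphoid cells, 5 in neutrophils, 3 in proximal tubule and 1 each in B and plasma, collecting duct and endothelial cells. Of the 26, 3 were higher without overlap (background 7.94%) and 1 lower (background 5.75%). These were phagocyte Il1a, Il18 of proximal tubule cells (4.22, 2.16 and 3.81 CPM with vehicle against 5.61, 4.38 and 8.98 with aristolochic acid; log2 fold change 0.64, SE 0.42, adjusted p = 0.561) and, in T, NK and innate lymphoid cells, Il1b (2.96, 1.30 and 3.15 CPM with vehicle against 6.54, 4.55 and 8.89 with aristolochic acid) and, lower, Il1r1 (3.94, 7.81 and 1.26 CPM with vehicle against 0.648, 0.402 and 0.603 with aristolochic acid). In proximal tubule cells the lymphocyte list also rose without overlap, and the macrophage list overlapped. The former was at 21.6, 23.4 and 20.9 CPM with vehicle and 33.1, 64.0 and 95.6 with aristolochic acid. In T, NK and innate lymphoid cells the mast cell and basophil list fell without overlap (50.3, 50.1 and 8.03 against 6.60, 5.76 and 4.17 CPM). The part of these lists in the levels was not tested. The control libraries differed among themselves, since 80.7% and 74.0% of the cells of vehicle 1 and 2 were proximal tubule cells and 12.5% of those of vehicle 3.

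Neutrophil Il1b was at 9009, 8888 and 7371 CPM in vehicle 1 to 3 and at 6744, 12501 and 9191 in aristolochic acid 1 to 3 (log2 fold change -0.04, SE 0.30, adjusted p = 0.999). Il1rn was at 133, 127 and 334 CPM with vehicle against 634, 213 and 1351 with aristolochic acid, where aristolochic acid 2 lay below vehicle 3 (log2 fold change 1.59, SE 0.56, adjusted p = 0.637), and the macrophage list in these cells summed to 199.8, 218 and 319 CPM with vehicle and 368, 337 and 617 with aristolochic acid (4 to 8 of 12 genes detected, C1qa at 0 to 24.3 and 0 to 17.7). The neutrophil list itself was lower in every treated library, at 200356, 258269 and 153175 CPM with vehicle and 119157, 106767 and 79457 with aristolochic acid (10 to 11 of 11 genes detected), and the part of either list in the neutrophil levels was not tested. Il1r2 was high in vehicle 3 alone among the controls, at 149.9, 227 and 1718 CPM with vehicle against 1312, 372 and 734 with aristolochic acid (log2 fold change 0.07, SE 0.73, adjusted p = 0.999). Its direction turned without vehicle 1, vehicle 2 or aristolochic acid 1. Phagocyte Il1a, at 1.33, 0.559 and 5.35 CPM with vehicle against 7.91, 23.4 and 12.8 with aristolochic acid, was higher in all 3 treated libraries, as were 7.47% of phagocyte genes (log2 fold change 2.09, SE 0.71, adjusted p = 0.818). Phagocyte Il1b was at 521, 455 and 28.8 CPM with vehicle against 74.0, 127 and 149 with aristolochic acid, with vehicle 3 the lowest of all (log2 fold change -1.47, SE 0.81, adjusted p = 0.823). Without vehicle 3 both passed, with log2 fold changes of 4.10, adjusted p = 0.0443 for Il1a and -2.01, adjusted p = 0.0255 for Il1b. The share of all genes that passed in that fit is not given here. The proximal tubule list in phagocytes was at 1725, 279 and 95.9 CPM in the vehicle libraries and 42.1, 316 and 65.5 in the treated ones (12 of 12 genes detected). Il18 (48.0, 33.6 and 29.4 against 32.2, 22.3 and 34.1 CPM) and Nlrp3 (26.0, 38.0 and 15.8 against 28.9, 25.2 and 24.8) in phagocytes overlapped, as did Il1rap in neutrophils (66.6, 165 and 176 against 149, 248 and 58.7) and Il18r1 in T, NK and innate lymphoid cells (108, 154 and 74.1 against 79.5, 88.5 and 100.0).

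In the SARATg kidney contrasts no member passed by edgeR with all libraries, the filter and no block. After aristolochic acid 0 of 35 passed by edgeR (background 0.023%, unadjusted p under 0.05 for 3), and with vehicle 0 of 34 (background 0.0203%, unadjusted p under 0.05 for 5). For the change within SARATg it was 0 of 33 (background 0.00293%, unadjusted p under 0.05 for 4), and for the difference between the genotypes in that change 0 of 33 (background 0%, unadjusted p under 0.05 for 2). DESeq2 called 0 in each (background 0.0608%, 0.141%, 0.744% and 0.0747% in that order). In the subclasses 0 of 32 passed in each (background 0.00721%, 0.0018%, 0.0162% and 0.0036%, unadjusted p under 0.05 for 3, 5, 5 and 3). Neutrophil Il1b was at 10130.2 and 5974 CPM in the SARATg vehicle libraries and 4036 in the library labelled SARATg aristolochic acid 1, neutrophil Il1r2 at 142 and 134 and 80.9, and Il1rn at 255 and 63.6 and 144. In the same order, neutrophil Il1rap was at 189 and 111 and 98.9 CPM and Nlrp3 at 236 and 194 and 162, phagocyte Il1a at 0 and 0.498 and 4.91 and Il18 at 36.8 and 19.9 and 28.3. Il18r1 of T, NK and innate lymphoid cells was at 113 and 151 and 65.5 CPM, and Il1r1 of collecting duct cells at 20.0 and 49.6 and 33.2.

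**Figure D4:**
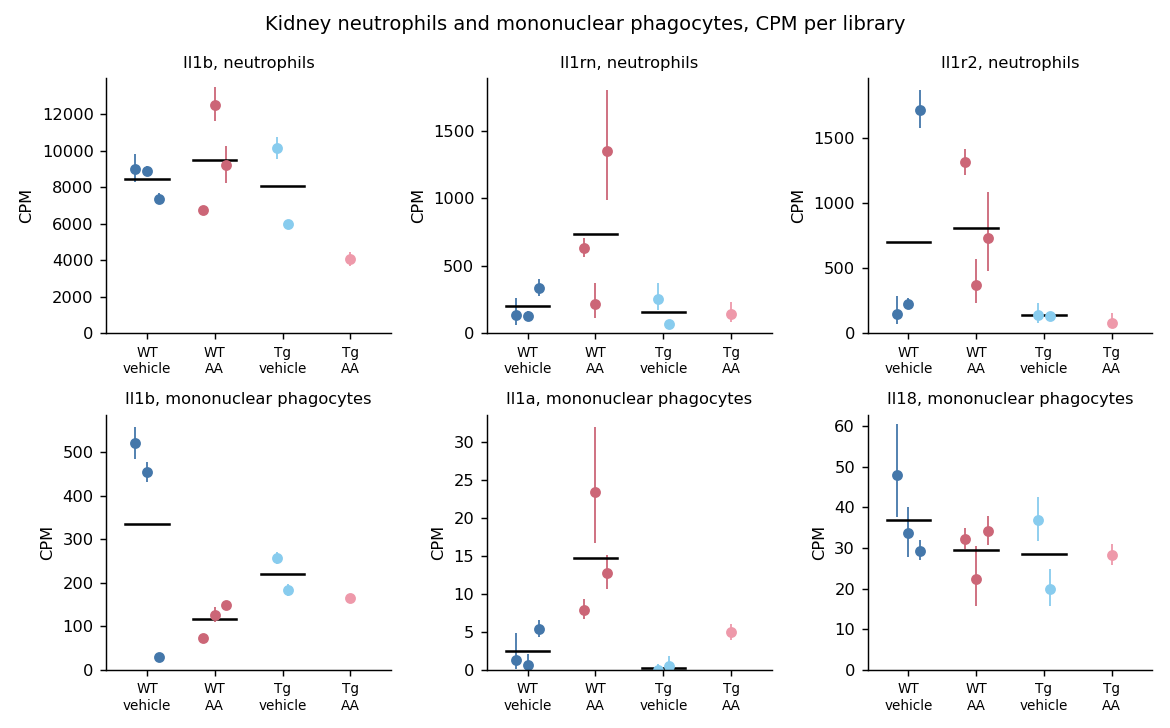
Levels of members in kidney neutrophils (Il1b, Il1rn, Il1r2) and phagocytes (Il1b, Il1a, Il18), in CPM per library on linear axes from 0, for SARAWT and SARATg mice with vehicle or aristolochic acid. Points are libraries, bars 95% Poisson counting intervals and black lines group means. Groups overlap for 5 of the 6 levels between SARAWT vehicle and aristolochic acid, phagocyte Il1a being the exception.

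Neutrophils of control skin had more Nlrp3, Il1rn and Il1rap than those of control kidney, while their Il1b and Il1r2 were not separated. This comparison of SARAWT PBS skin (n = 3) with SARAWT vehicle kidney (n = 3) was added after the levels had been seen, and tissue cannot be told apart from the experiment and its processing. In 5 shared classes 14 of 21 tests passed, all higher in skin (background 28.1% in either direction). In neutrophils (background 25%), Il1b was at 10726, 8480.5 and 11906 CPM in skin and 9009, 8888 and 7371 in kidney, a log2 fold change of 0.29 (SE 0.36, 95% interval -0.50 to 1.07, adjusted p = 0.575), and its direction turned without PBS 3 or vehicle 3. Nlrp3 was at 1983, 2433 and 2225 CPM in skin and 133, 211 and 94.1 in kidney, far from overlap (log2 fold change 3.83, SE 0.42, adjusted p = 0.000183). Il1rn (log2 fold change 2.16, SE 0.47, adjusted p = 0.00638) and Il1rap (log2 fold change 1.96, SE 0.54, adjusted p = 0.0206) were also higher in skin, Il1rap not past the threshold without PBS 3 (log2 fold change 1.19, adjusted p = 0.164). Il1r2 was at 448, 382 and 656 CPM in skin and 149.9, 227 and 1718 in kidney, vehicle 3 standing above the other vehicle libraries. Its log2 fold change was -0.41 (SE 0.70, 95% interval -1.94 to 1.12, adjusted p = 0.698), and without vehicle 3 it turned to 1.11, adjusted p = 0.0707. The neutrophil list summed to 115384, 62699.8 and 113332 CPM in skin neutrophils and 200356, 258269 and 153175 in kidney ones.

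Skin phagocytes had more of 7 members than kidney phagocytes (background 33%). Il1r1 differed most, at 28.2, 54.3 and 49.4 CPM in skin and 0, 0.839 and 1.05 in kidney (log2 fold change 5.73, SE 0.53, adjusted p = 0.000248), and it was followed by Il1rn (log2 fold change 4.54, SE 0.64, adjusted p = 0.00139) and Il1r2 (log2 fold change 3.70, SE 0.48, adjusted p = 0.000954). Il1b was at 1804, 2423 and 4479 CPM in skin and 521, 455 and 28.8 in kidney (log2 fold change 3.37, SE 0.87, adjusted p = 0.0185). Nlrp3 (log2 fold change 3.17, SE 0.34, adjusted p = 0.000401), Il1rap (log2 fold change 1.55, SE 0.34, adjusted p = 0.00955) and Il18 (log2 fold change 1.01, SE 0.23, adjusted p = 0.011) completed the 7, while Il1a and Il18r1 did not pass (adjusted p = 0.162 and 0.118). In the subclasses 26 of 38 tests passed, all higher in skin (background 27.8%). T, NK and innate lymphoid cells of skin had more Il1r1 (35.5, 38.8 and 37.7 against 3.94, 7.81 and 1.26 CPM; log2 fold change 3.66, SE 0.54, adjusted p = 0.000295), more Il18r1 (log2 fold change 1.10, SE 0.30, adjusted p = 0.0129) and more Il1b, at 167, 64.7 and 72.0 against 2.96, 1.30 and 3.15 CPM (log2 fold change 5.36, SE 0.49, adjusted p = 1.03e-05). Over all libraries mean Il1b was also 31.5 CPM in skin stroma, 27.4 in skin keratinocytes and 17.7 in skin endothelial cells. In kidney it was 9.46 in endothelial and 3.73 in proximal tubule cells. How much of the lymphocyte Il1b came from other cells was not tested. In kidney T cells too, Il1r1 was higher in cells with a UMI of Trdc, in 9 of 9 libraries (medians 21.9 and 0.438 CPM).

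**Figure D5:**
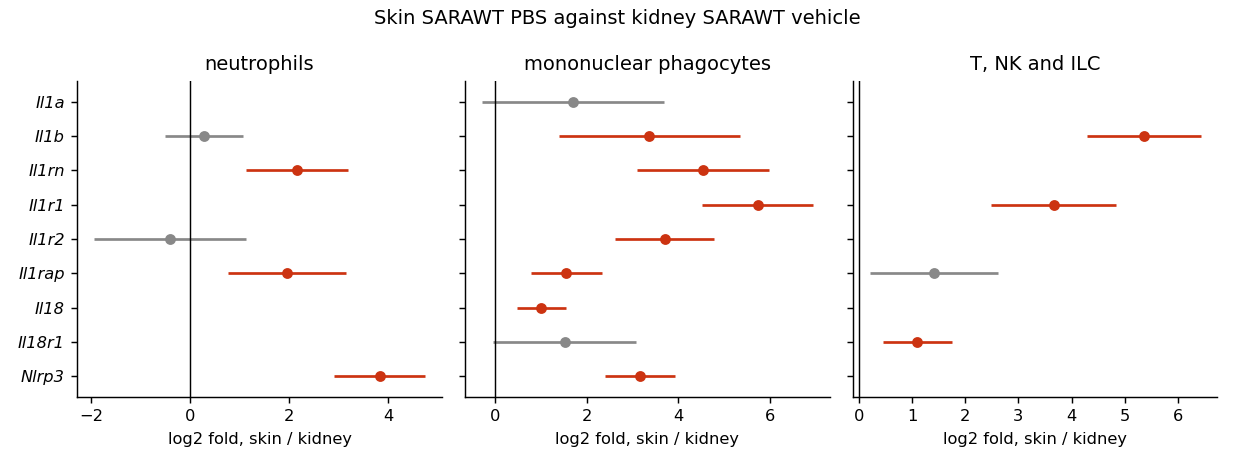
Differences between control skin (SARAWT PBS, n = 3) and control kidney (SARAWT vehicle, n = 3) for each member tested in neutrophils, phagocytes and T, NK and innate lymphoid cells. The horizontal axis is the log2 fold change (skin over kidney), bars are 95% intervals, and red points have an adjusted p under 0.05. Every red point lies to the right of 0, and Il1b and Il1r2 in neutrophils lie near it.

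A list of 38 further genes of the pathway (related cytokines and receptors, adaptors and kinases such as Myd88 and Irak1 to Irak4, inflammasome parts, and induced genes such as Cxcl1 and Ptgs2) was read in the same fits. Between bleomycin and PBS in SARAWT skin, 0 of 15 tested genes passed in neutrophils (median log2 fold change 0.132 against 0.00390 over all 1766 genes tested), 0 of 33 in phagocytes (-0.125 against -0.00596) and 0 of 28 in stroma (-0.329 against -0.0334). Elsewhere 3 fell. The cytokine Il6 was the 1 of 9 list genes in endothelial cells (log2 fold change -5.61, SE 0.98, adjusted p = 0.0401; background 0.438%), the NF-kB cofactor Nfkbiz the 1 of 12 in Schwann cells (log2 fold change -1.73, SE 0.26, adjusted p = 0.0192; background 3.62%) and the IL-33 receptor Il1rl1 the 1 of 32 in macrophages (log2 fold change -1.33, SE 0.20, adjusted p = 0.0339; background 0.437%). The replicate block was also read in the lineage classes that met the limit used for pairing. There 2 of 33 list genes passed in phagocytes (background 1.44%), 1 of 15 in neutrophils (background 0.68%) and 2 of 28 in stroma (background 6.27%). These counts are too small to read against the backgrounds. Phagocyte Il18bp, which encodes the soluble IL-18 binding protein, rose (log2 fold change 1.90, SE 0.25, adjusted p = 0.0207) and phagocyte Il1rl1 fell (log2 fold change -1.24, SE 0.21, adjusted p = 0.0362), the neutrophil chemokine Cxcl1 rose in neutrophils (log2 fold change 1.53, SE 0.38, adjusted p = 0.0411), and the inhibitors Tnfaip3 (log2 fold change -1.17, SE 0.26, adjusted p = 0.0499) and Irak3 (log2 fold change -1.63, SE 0.32, adjusted p = 0.0421) fell in stroma. Between aristolochic acid and vehicle in kidney, none passed of 15 tested in neutrophils or 31 in phagocytes.

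In the SARATg PBS library 10 of 214 tests of list genes in the lineage classes passed against SARAWT PBS (background 0.547%), 9 of them lower, over 5 classes and always with 1 SARATg library. Without PBS 3, whose Zfyve9 was above both SARATg libraries, only neutrophil Cxcl1 and mural cell Il6 and Cxcl2 still passed, and without the gene list term 0 did (background 0.00883%). For mural cells this is no check. Without PBS 3 their SARAWT libraries all had the longer gene list and their SARATg libraries the shorter, so genotype and gene list cannot be told apart. The mural fits with all libraries, here and between the SARATg libraries, had 3655 degrees of freedom and pooled the spread over genes. In mast cells and basophils none passed without bleomycin 3 either. The chemokine Cxcl1 was lower in neutrophils (log2 fold change -5.20, adjusted p = 0.0016), keratinocytes (-2.87, adjusted p = 0.00107) and mural cells (-2.05, adjusted p = 0.00785). Cxcl2, a chemokine of the same kind, was lower in mast cells and basophils (log2 fold change -3.24, adjusted p = 5.02e-09), mural cells (-3.83, adjusted p = 1.68e-05) and Schwann cells (-5.85, adjusted p = 0.0354). Il6 was lower in mast cells and basophils (log2 fold change -1.72, adjusted p = 0.0178) and mural cells (-4.62, adjusted p = 1.32e-11), and Nfkb1, an NF-kB subunit, in mast cells and basophils (-2.03, adjusted p = 0.00302). Pycard, the inflammasome adaptor ASC, was higher in keratinocytes (log2 fold change 1.51, adjusted p = 0.0257). Against SARAWT bleomycin, Cxcl1 was lower in neutrophils of the SARATg library (log2 fold change -2.76, adjusted p = 0.0401) and Ptgs2 higher in mast cells and basophils (2.42, adjusted p = 0.00763). Neither passed without bleomycin 3 or without the gene list term, nor Ptgs2 without PBS 3.

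Between the SARATg bleomycin and SARATg PBS libraries, again 1 against 1 with the spread taken from SARAWT, 6 of 17 list genes passed as higher with bleomycin in mast cells and basophils, where 3.02% of all genes passed in either direction. They were Il6 (log2 fold change 2.53, adjusted p = 7.57e-05), the IL-18 receptor chain Il18rap (adjusted p = 0.0188), Il1rl1 (1.78, adjusted p = 0.0156), Nfkb1 (2.19, adjusted p = 0.000854), Ptgs2 (2.57, adjusted p = 0.00436) and Cxcl2 (2.13, adjusted p = 0.000271). As for the members in this class, none of the 6 passed without PBS 3, without bleomycin 3 or without the gene list term, and the neutrophil list in these cells was at 0 CPM in the SARATg PBS and 361 in the SARATg bleomycin library, its part not tested. Dendritic cells had higher Cxcl1 (log2 fold change 4.64, adjusted p = 0.0122), Ptgs2 (3.93, adjusted p = 0.00853) and Cxcl2 (4.56, adjusted p = 0.0215), and Schwann cells higher Cxcl2 (4.62, adjusted p = 0.0369). Lower with bleomycin were Il1rl1 of T, NK and innate lymphoid cells (log2 fold change -4.15, adjusted p = 0.000156) and of their Cd3+ T cells (-4.81, adjusted p = 0.0211), the IL-36 receptor gene Il1rl2 in stroma (-2.91, adjusted p = 0.0196) and Nfkbiz in mural cells (-2.17, adjusted p = 0.0227). The change after bleomycin differed between the genotypes for Il1rl1 of T, NK and innate lymphoid cells (difference in log2 fold change -2.93, adjusted p = 0.019) and, in mast cells and basophils, for Il6 (2.22, adjusted p = 0.0128), Il18rap (adjusted p = 0.0202), Nfkb1 (1.98, adjusted p = 0.0361), Ptgs2 (3.05, adjusted p = 0.0318) and Cxcl2 (4.13, adjusted p = 2.75e-09), those of mast cells and basophils again not without PBS 3 or bleomycin 3. Without the gene list term 1 of the 14 calls between the SARATg libraries, Il1rl2 of stroma, still passed, and 0 of the 6 for the difference in change.

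Control skin against control kidney gave many calls in the list, as over all genes. In neutrophils 12 of 16 were higher in skin and 1 lower (background 25%, median log2 fold change 2.13 against -0.0223 over all genes), among them Cxcl1 (7.72), the NF-kB inhibitor Tnfaip3 (4.25) and the kinase Irak2 (3.03), while the pore protein gene Gsdmd was lower (-1.83). In phagocytes 18 of 32 were higher and 3 lower (background 33%).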

How the data were processed

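Cells of PDGFRb-Cre, Z/EG mice were released with Liberase TM, sorted for GFP and sequenced by the authors as 3′ single-cell libraries of 8 skin and 9 kidney samples. The deposited values are whole-number counts of UMIs per gene and barcode, not normalized, which the authors made with Cell Ranger (4.0.0 for 4 skin libraries, 3.1.0 for the other 4, and 3.0.2 for kidney, per the file headers) on mm10. The submitters' processing notes also name Seurat 2.3.4. The study's methods give another injection schedule than the labels, whose schedule is used here.

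Barcodes with fewer than 200 genes or over 20% mitochondrial UMIs were dropped. Total UMI counts per library are given in the report. A cell entered a class with 3 or more markers of that class and with at least 2 times as many as of any other lineage, so doublets were not called but mixed cells were left outside the classes, and a stricter gate (5 markers), a looser one (2) and leaving out cells above 2 times the median UMI count were alternatives. UMIs were summed per library and class (10 or more cells). Sums were fitted with edgeR 4.0.16 (quasi-likelihood test, filterByExpr, TMM, Benjamini-Hochberg adjustment over all genes of a fit, threshold 0.05) in R 4.3.3. SARATg fits in skin carried a term for the gene list of the library, since 4 libraries were counted against a longer list, and they used the 30406 gene identifiers common to all libraries. DESeq2 1.42.0 was an alternative. CPM are UMIs scaled to a total of 1000000, and 95% intervals of log2 fold changes use the degrees of freedom of the fit. Counting intervals are exact Poisson intervals at 95% and cover counting error only. Classes with 10 or more cells in at least 6 libraries were ranked by mean CPM, and the first pair were compared by a two-sided exact sign-flip test over libraries of log2(CPM + 1), adjusted over the 18 pairs, which cannot go below 0.00781 unadjusted in skin and 0.00391 in kidney.

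Replicate numbers were treated as pairing libraries where each same-numbered pair of SARAWT libraries correlated by over 0.1 in their deviations from the group means. This held in skin for all kept cells (0.129 to 0.527), neutrophils (0.105 to 0.348), phagocytes (0.259 to 0.573; also macrophages, dendritic cells and undivided phagocytes) and stroma (0.190 to 0.316), not for T, NK and innate lymphoid cells nor for kidney. Differently numbered pairs reached 0.213 in all kept cells, 0.282 in phagocytes, 0.288 in macrophages, 0.0953 in neutrophils and 0.00854 in stroma. SARAWT libraries 1 and 2 share a gene list and Cell Ranger version that libraries 3 do not, so number and processing cannot be told apart. A difference of libraries 3 from libraries 1 and 2 would alone raise every same-numbered correlation, so the limit of 0.1 does not show pairing by number. Fits were tested on simulated counts. All 9 members were named in every comparison, in 1 class or more, with the 3 genes of the most similar pattern (at least 20 CPM in a class). List genes past the threshold in gated classes without the block were named with their values, other than between the tissues, where examples stand for many. The members and lists were chosen with earlier results of these data known, and the tissue comparison, the divisions by marker UMIs and the shares of UMIs without single libraries were added after levels had been seen. Positions are from GENCODE M21 and promoters from RefSeq.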

Additional observations from a re-analysis of the deposited data

Results flagged for a closer look

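In 3 cases the change after bleomycin differed between the SARATg and SARAWT skin libraries by a test of the difference itself (edgeR, adjusted p under 0.05), always with 1 SARATg library per treatment. Il1b of T, NK and innate lymphoid cells was at 18.6 and 56.3 CPM in the SARATg PBS and bleomycin libraries, against 167, 64.7 and 72.0 in the SARAWT PBS and 14.4, 55.7 and 31.9 in the SARAWT bleomycin libraries. The difference in log2 fold change was 3.14 (SE 0.66, adjusted p = 0.0436). It passed under 9 of 17 alternatives, and it was 1.05 (adjusted p = 1) once cells above 2 times the median UMI count were left out.

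Il1b of mast cells and basophils had a difference of 6.75 (SE 0.66, adjusted p = 1.60e-15), and Nlrp3 of the same class one of 11.06 (SE 1.36, adjusted p = 1.45e-10), the latter resting on 0 Nlrp3 UMIs in the SARATg PBS library, so that its size is no bound. In this class the SARAWT libraries of either treatment disagreed with one another, Il1b being at 237 and 2414 CPM in PBS 1 and 3 and at 75.1, 27.3 and 2131 in bleomycin 1 to 3. Without the gene list term, without PBS 3 or without bleomycin 3 neither passed, and with cells above 2 times the median UMI count left out the Il1b difference was 1.52 (adjusted p = 1). What sets these libraries apart was not tested.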

How the results depend on the processing

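Counts of calls among the members moved with the settings in skin. The share of all genes called moved with the settings too and is not given for each, so these counts are not results about the members. For bleomycin against PBS in gated classes, 0 calls became 3 with DESeq2, 5 with no filter (named in the report), 4 with the replicate block, and 0 to 1 without single libraries (1 without PBS 3); in all kept cells the block gave 2. For SARATg against SARAWT after bleomycin, gated classes and all kept cells together here and in the SARATg counts that follow, 1 call became 5 with DESeq2, 2 without TMM factors, 5 with no filter, 6 with the block, 2 with shared barcodes left out, 2 with the stricter gate, 3 without cells above 2 times the median UMI count, 0 with at least 30 cells, where neutrophils could not be fitted, and 1 to 3 without single libraries. After PBS, 3 became 5 with DESeq2, 8 with no filter, 5 with the block, 0 without the gene list term and 2 to 4 without single libraries. Between the SARATg libraries, 4 became 10 with no filter, 7 with the block, 7 without cells above 2 times the median UMI count, 1 without the gene list term and 3 to 8 without single libraries. For the difference in change, 3 became 7 with no filter, 5 with the block, 0 without the gene list term and 2 to 5 without single libraries. In kidney, aristolochic acid against vehicle gave 0 to 2 without single libraries, both in all kept cells and in gated classes, in each case 2 without vehicle 3. Kidney SARATg against SARAWT gave 1 with no filter after aristolochic acid, 1 with no filter with vehicle, and 0 to 1 there without single libraries: neutrophil Il1r2 with no filter, and Il18r1 in all kept cells without vehicle 3. The tissue comparison gave 12 to 21 calls and the class order 14 to 15. With at least 30 cells, the highest class was that of the report for 11 of the 18 pairs and the second class for 11, since skin neutrophils and kidney collecting duct cells then reached fewer than 6 libraries.

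Of the single members' values under alternatives, 688 kept direction and side of the threshold, 26 passed it newly, 47 no longer passed and 13 turned direction. Those that turned are skin phagocyte Il1b with shared barcodes left out (0.0152), without PBS 3 (0.289, the range without single libraries being -0.536 to 0.289) and without PBS 1 and 3 (0.0504), and Il1b of skin T, NK and innate lymphoid cells without cells above 2 times the median UMI count (0.359). Kidney neutrophil Il1r2 turned with no filter (-0.0800), with shared barcodes left out (-0.154) and without single libraries (-0.523 to 1.84, below 0 for vehicle 1, vehicle 2 and aristolochic acid 1). Between the tissues, neutrophil Il1b turned without PBS 3 (-0.0316) or vehicle 3 (-0.0589, range -0.0589 to 0.613), and neutrophil Il1r2 with the block (0.0602) and without vehicle 3 (1.11, range -1.05 to 1.11). The causes were not tested. In kidney, between the tissues and in mast cells and basophils the numbers did not meet the limit used for pairing or were not checked. There, and in T, NK and innate lymphoid cells, Cd3+ T cells and keratinocytes of skin, the block gave further SARATg calls, which the counts of the report include. Between the genotypes these were Il1r2 and Nlrp3 after bleomycin in T, NK and innate lymphoid cells and in Cd3+ T cells, Il1b and Nlrp3 after bleomycin in mast cells and basophils, and after PBS Il1b in T, NK and innate lymphoid cells, Cd3+ T cells and keratinocytes and Il1r2 in Cd3+ T cells. Between the SARATg libraries they were Il1r2, Il1b and Nlrp3 in T, NK and innate lymphoid cells and, with Il1r1, in Cd3+ T cells, and for the difference in change Nlrp3 in T, NK and innate lymphoid cells and Il1b and Nlrp3 in Cd3+ T cells. The block also gave 1 call in kidney subclasses, dendritic cell Il1b between the SARATg groups (log2 fold change 6.63), and it took phagocyte Il1b between the tissues (adjusted p = 0.0602) and Il1b of mast cells and basophils between the PBS genotypes (adjusted p = 0.486) to values above 0.05. Of the other calls that the report names and whose alternatives were computed, the block changed none beside those it gives with the block. Few neutrophils in PBS 1, PBS 2 and bleomycin 2 limit what the skin neutrophil values can show.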

Other observations

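Kidney T cells with a UMI of Foxp3, the regulatory T cell factor, held more Il1r2 than those without in 5 of 7 libraries (medians 40.5 and 2.97 CPM). Those with Trdc held more Il18r1 in 9 of 9 (medians 204 and 91.2 CPM), whereas in skin this was so in 3 of 7. These divisions were made after the levels had been seen.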
